A study of Mus musculus with 6 samples.

Results

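The data describe the resting gene expression of red pulp macrophages from wild-type mice. Of the 6 arrays in the series, the 3 labelled wild type were described on their own. They came from 3 independent C57BL/6 mice aged 8 to 9 weeks, 2 males (mouse 1 and mouse 2) and 1 female (mouse 3). The series also holds mice that lack Bach2, a heme-responsive transcriptional repressor; those arrays were not used here. Macrophages were sorted from spleen by flow cytometry, and no source used here names the markers of the gate. Total RNA was amplified, labelled with Cy3 and hybridised to a 1-colour Agilent mouse array with 55681 probes. A probe was kept where it was well above local background on all 3 arrays. This left 18842 probes (33.8%), of which 12746 carried a RefSeq accession that named a gene, 10357 genes of the 20018 named on the array (51.7%). The level of a gene is the log2 signal of its brightest kept probe minus the 75th percentile of that array, so that level 0 is the signal that 75% of spots fall below. The kept share of each list below stands against this 51.7%. The kept genes had a median level of 1.82. They form a single group, so no contrast between conditions was made and no test was run. Because the only female is mouse 3, sex and individual cannot be told apart for any value in which mouse 3 differs.

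Red pulp macrophages line the venous cords of the spleen and remove old red blood cells. They engulf the cells, break hemoglobin down in lysosomes, carry heme into the cytosol, open its ring with heme oxygenase and either store the iron in ferritin or return it to plasma through ferroportin. Their identity depends on the transcription factor SPI-C, whose repression by BACH1 is released by heme.

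The 5 genes taken as markers of the cell type were all kept, and all lay at level 6 or above, where 537 of the 10357 genes lay. Spic, which encodes SPI-C, had levels of 5.53, 6.15 and 6.49 in mouse 1, 2 and 3 (mean 6.06 ± 0.49 SD, n = 3) and ranked 524th among the named genes. Slc40a1, which encodes the iron exporter ferroportin, had levels of 7.43, 8.00 and 8.51 (7.98 ± 0.54 SD, n = 3) and ranked 78th. Vcam1, an adhesion molecule that marks these macrophages, had levels of 7.10, 7.51 and 8.32 (7.64 ± 0.62 SD, n = 3). The markers were chosen with earlier results of these data known, so their levels do not test the labelled cell type. C1qa, a chain of the first complement component, had levels of 7.26, 7.65 and 7.99 (7.63 ± 0.36 SD, n = 3). Hmox1, the inducible heme oxygenase, had levels of 6.92, 6.73 and 8.26 (7.30 ± 0.84 SD, n = 3). Mouse 3 was the highest for each of the 5, against 23.9% of all kept genes and 18 of 28 translation and cytoskeleton genes. Its excess over the mean of the males ran from 0.53 for C1qa to 1.44 for Hmox1. It remained above that mean after quantile normalization (0.40 to 1.28). Hmox1 had the widest spread of the 5, with the males close together and the female 2.71-fold above their mean; without mouse 3 its SD was 0.14. The SD of Vcam1 without mouse 3 was 0.29, and those of Spic and C1qa without mouse 1 were both 0.24. The second probe of Hmox1 showed the same order at a lower signal, with levels of 2.66, 2.11 and 4.20. The second probe of Vcam1 did not repeat the order: its levels were 3.32, 3.55 and 3.50.

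Scaling bears on the brightest genes. The 75th percentile was 1734, 1693 and 865 fluorescence units in mouse 1, 2 and 3, so the array of mouse 3 was dimmer overall. Many of the brightest spots did not follow in proportion: 7 bright positive-control probes that were chosen for being nearly constant over the arrays spanned 388016 to 581191 units, and no spot was flagged as saturated. Other bright genes were dimmer on the array of mouse 3, such as Tuba1b with 595245, 505092 and 241242. Genes in the range of the control probes on every array were all highest in mouse 3 once the percentile was subtracted, so processed signals are given for those described. Of the 5 markers, 1 reached that range on at least 1 array. The median excess of mouse 3 was 0.59 over kept genes at level 8 and over, and -0.08 at level 6 to 8. Signal also depends on the probe, so the order below is one of probe brightness and not of transcript number.

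**Figure D1:**
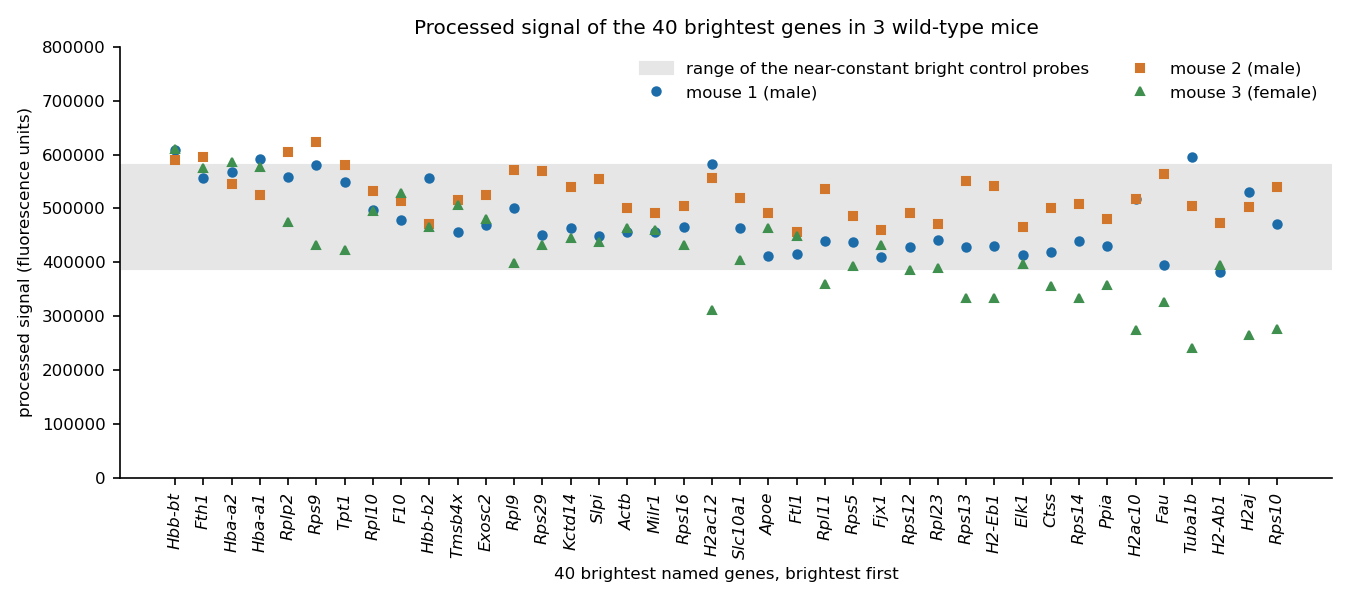
Processed signal (linear axis, fluorescence units) of the 40 brightest named genes in each of the 3 wild-type mice, ordered by mean level; the grey band is the range of the near-constant bright control probes, 388016 to 581191. Points of 26 of the 40 genes lay at or above the band's lower edge on all 3 arrays.

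The 40 brightest named genes had mean levels of 8.24 to 8.79. They included the globins, the ferritins, ribosomal proteins, cytoskeletal genes and genes of the macrophage's own work. The 4 globin entries were Hbb-bt, Hba-a2, Hba-a1 and Hbb-b2, the adult chains of hemoglobin. Hbb-bt was the brightest gene, with processed signals of 609084, 589665 and 611354. The paired globin genes are nearly identical in sequence, so which copy gave the signal is uncertain. Fth1, the heavy chain of the iron store ferritin, ranked 2nd with signals of 557184, 595187 and 574254, a range of 1.07-fold over the 3 mice. Ftl1, the ferritin light chain, ranked 23rd with 415952, 456167 and 448157. Both ferritin chains and the 4 globins thus read within or above the range of the near-constant control probes in every mouse, and no difference between mice is read from them. Ribosomal protein genes gave 13 of the 40, among them Rplp2, Rps9 and Rpl10, and the 81 kept genes of the cytosolic ribosome had a median level of 7.90. Ribosomal protein genes have many processed copies, and their single probes may read more than one.

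Macrophage genes stood among these housekeeping genes. Apoe, which carries lipid out of macrophages, had signals of 411132, 492257 and 463353. Ctss, the lysosomal protease that trims the class II invariant chain, had levels of 7.92, 8.21 and 8.68. H2-Eb1 and H2-Ab1, chains of the class II antigen-presenting molecules, had mean levels of 8.29 and 8.25. Slpi, a secreted inhibitor of neutrophil proteases, had signals of 449654, 553966 and 437662, all within the range of the control probes. Actb, Tmsb4x and Tuba1b, which build and regulate the cytoskeleton, were also among the 40, as were Tpt1, Ppia, the exosome subunit gene Exosc2, Milr1, Fjx1 and Fau, a fusion of a ubiquitin-like protein and a ribosomal protein. Of the 17 genes of the 40 with several probes, 4 had another probe below level 0. F10, coagulation factor X, had a second probe at -2.14, Kctd14 a further probe at -2.86, and the second probes of the bile acid carrier Slc10a1 and of the transcription factor Elk1 were well above background on none of the 3 arrays. The levels of these 4 rest on a single bright probe each, and 23 of the 40 had no second probe at all. The 3 histone H2A genes, H2ac12, H2ac10 and H2aj, share almost all their coding sequence and were not separable.

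Genes that carry heme and iron through the cell were mostly kept: 13 of the 15 listed for heme handling and 20 of the 26 for iron. These shares were 86.7% and 76.9%, against 51.7% of all named genes. Those kept in every mouse spanned the whole route. Slc48a1, which moves heme out of the phagolysosome, had levels of 5.81, 5.68 and 6.58. Hmox2, the constitutive heme oxygenase, had levels of 5.06, 6.14 and 5.69. The biliverdin reductases followed, Blvrb with 7.31, 6.94 and 6.64 and Blvra with 5.10, 6.13 and 5.88. No mouse was the highest throughout these genes. Lrp1, the receptor for heme bound to hemopexin, had a mean level of 3.71 ± 0.36 (SD, n = 3). Cd163, the receptor for hemoglobin bound to haptoglobin, was dim, with levels of -2.02, -1.84 and -0.16. Flvcr1, a heme exporter, had a mean level of 0.64 ± 0.60 (SD, n = 3). Flvcr2, a heme carrier, and Hpx, hemopexin itself, were well above background on no array.

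On the iron side, Trf, which encodes transferrin, had levels of 7.50, 7.94 and 8.51 and Slc11a1, the phagosomal metal pump NRAMP1, had levels of 5.16, 5.72 and 6.07. Pcbp1, an iron chaperone that loads ferritin, varied little after either scaling, with levels of 6.28, 6.60 and 6.19. Ncoa4, the receptor that sends ferritin to the lysosome, had levels of 5.27, 4.80 and 4.88. Hfe, which senses transferrin saturation in other cells, had a mean level of 5.53 ± 0.60 (SD, n = 3). The ferroxidase genes Heph and Hephl1, the hormone gene Hamp, the reductase Steap4 and Ireb2, which encodes an iron-regulatory protein, were well above background on no array. Cp, ceruloplasmin, was kept at a low level with almost no spread (-0.64, -0.69 and -0.67).

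**Figure D2:**
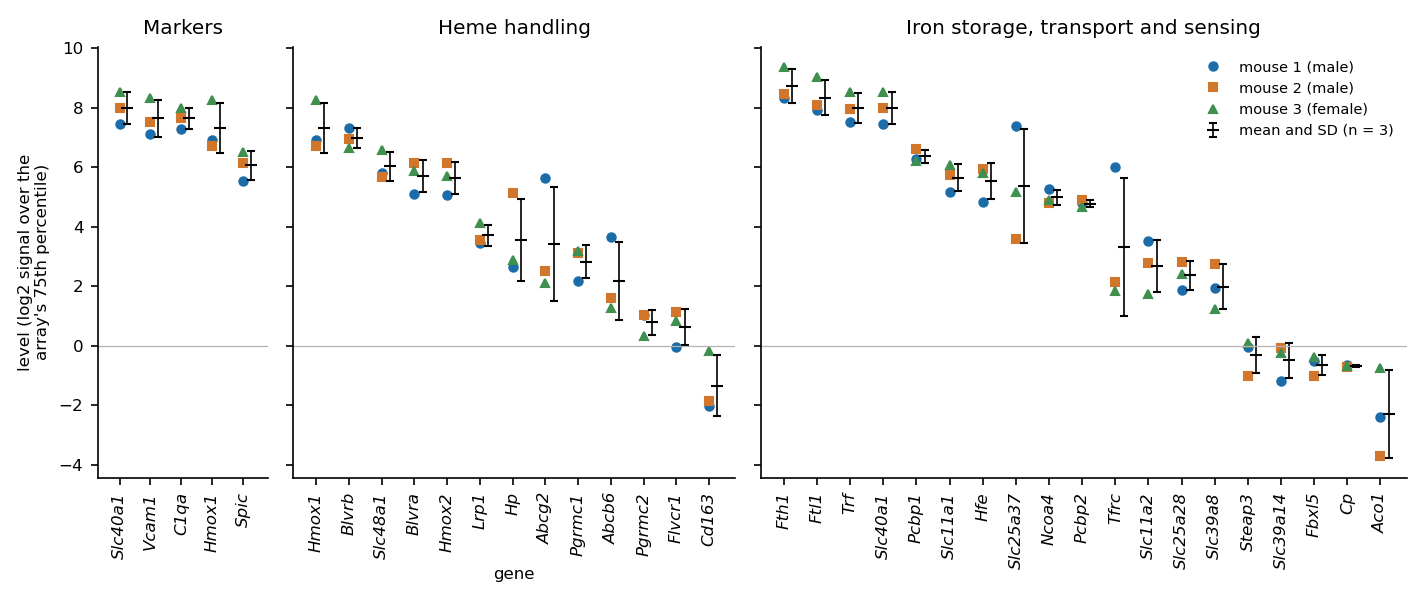
Level, in log2 units above the 75th percentile of each array, of kept marker, heme and iron genes in each mouse, 1 iron gene not drawn; the black bar beside each gene is the mean with its SD (n = 3). The 5 markers lay above level 5.5 in every mouse, and Abcg2, Abcb6, Slc25a37 and Tfrc stand out with mouse 1 above both other mice.

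Genes for binding and engulfing cells were kept for 24 of the 27 listed (88.9%), against 51.7% of all named genes. Sirpa, which reads the CD47 signal on red cells, had a mean level of 7.44, highest in mouse 3 (7.79). Axl, a receptor for phosphatidylserine bridged by Gas6, had levels of 5.93, 6.77 and 7.11, and its relative Mertk had 4.13, 4.91 and 5.19. Tyro3, the remaining receptor of that family, was above background on 1 array only. Stab2, a scavenger receptor that sinusoidal endothelium also carries, had a mean level of 4.58 ± 0.72 (SD, n = 3), while Stab1 was above background on 1 array. Opsonin receptors were kept without exception: all 6 Fc receptor genes, led by the shared signalling chain Fcer1g with levels of 7.24, 8.04 and 8.43. The C1q chains were bright, with means of 8.10 for C1qc, 7.63 for C1qa and 6.98 for C1qb, as was Cfp, properdin, at 7.89. Of the 19 complement genes on the array 14 were kept (73.7%), against 51.7% of all named genes.

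The lysosome list had 37 of 40 genes kept (92.5%), against 51.7% of all named genes. Its median level was 5.11, against 1.82 over all kept genes. Its brightest members after Ctss were the protease Ctsb (7.72, 8.07 and 8.84), the protease inhibitor Cst3 (7.49, 8.00 and 8.39), the membrane protein Lamp1 (7.39, 7.76 and 7.97) and the galactosidase Gla (7.10, 7.46 and 7.48). The median SD of the list was 0.45, against 0.54 for all kept genes. Over all kept genes the median SD was 0.53 at level 4 to 6 and 0.40 at level 6 to 8. Of the 37 lysosomal genes 17 lay at level 6 or above, and their spread was not compared at matched level. Atp6v0d2, a proton pump subunit best known from osteoclasts, was well above background on no array, and Ctsk, the osteoclast protease, on 2. All 15 antigen presentation genes were kept with a median level of 6.52. Among them Cd74, the invariant chain, had 6.39, 6.75 and 8.38, so mouse 3 was 3.50-fold above the mean of the males.

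Promoters of the lysosomal genes were compared because the factors TFEB and TFE3 act on many of them through the letters CACGTG. Each window held 300 bases, 250 before and 50 after the start, from RefSeq on GRCm38.p6, and both strands were searched. Of the 37 kept lysosomal genes 29 had a window, and 9 of these (31.0%) held CACGTG, against 10.5% of the 8367 windows of kept genes and 7.24% of all 27025. The windows of Lamp1 and Ctsd, which held several copies each, are shown with every CACGTG in capitals. The 4 matches in Lamp1 began 61, 45, 28 and 15 bases before the start, and those in Ctsd, the protease cathepsin D, 245 and 98 bases before it.
Lamp1 (chr8:13158911-13159210, + strand): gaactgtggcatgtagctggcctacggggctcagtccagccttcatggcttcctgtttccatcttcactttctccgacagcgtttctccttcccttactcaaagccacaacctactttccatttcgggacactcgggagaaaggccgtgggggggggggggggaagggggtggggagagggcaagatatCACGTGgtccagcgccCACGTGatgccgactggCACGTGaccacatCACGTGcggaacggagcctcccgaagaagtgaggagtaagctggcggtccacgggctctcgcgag
Ctsd (chr7:142387778-142388077, - strand): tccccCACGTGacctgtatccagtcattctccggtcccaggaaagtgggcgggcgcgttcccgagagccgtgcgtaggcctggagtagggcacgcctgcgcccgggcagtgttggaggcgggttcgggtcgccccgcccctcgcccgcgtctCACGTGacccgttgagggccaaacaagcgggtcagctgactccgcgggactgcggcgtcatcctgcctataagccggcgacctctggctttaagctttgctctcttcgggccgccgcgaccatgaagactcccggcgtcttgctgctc

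Other parts of macrophage identity were also kept: all 29 listed genes found on the array were members, with a median level of 4.64. Csf1r, the receptor for the growth factor that sustains macrophages, had levels of 7.40, 7.71 and 8.54. Adgre1, the F4/80 antigen, had levels of 6.90, 7.26 and 7.53. Cd5l, a secreted scavenger protein, had levels of 7.22, 7.49 and 7.07. Transcription factors of the lineage were spread widely, from Irf8 (6.55, 7.38 and 6.57) and the oxysterol receptor Nr1h3 (6.03, 6.81 and 6.64) through Maf and Pparg to Spi1 and Cebpa (-2.27, -1.97 and 0.43). Spi1, which encodes PU.1, read low and unevenly, with levels of -1.26, -1.50 and 1.04 from its single probe. The letters GAGGAA, the core that PU.1 and SPI-C bind, stood in 9 of the 20 identity promoters with a window (45.0%). They stood in 27.0% of the windows of kept genes and in 28.3% of all. The share was 44.8% of 29 lysosomal, 35.3% of 17 cell cycle and 26.7% of 15 immediate early windows. It was thus not particular to the identity list. The window of Spic itself held none of the letter sets searched.

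Secreted signals were kept in part: 18 of 31 cytokine, chemokine and growth factor genes were members. This share (58.1%) was near the 51.7% of all named genes. Grn, progranulin, led with 6.68, 7.24 and 7.12, followed by Igf1 (6.24, 7.20 and 6.90) and the chemokine Ccl4 (6.00, 6.03 and 7.45). Il6, Il10, Ifnb1, Cxcl2, Ccl7, Ccl8 and Ccl22 were well above background on no array. Tnf, Ccl2 and Ccl3 were above it in mouse 2 and mouse 3 but not in mouse 1. Among pattern receptors, Clec4n (Dectin-2) was bright with levels of 7.36, 7.78 and 7.79, Cd14 reached a mean of 5.47, and the Toll-like receptors were kept except Tlr5 and Tlr8. Bach2, the gene deleted in the other genotype of the series, was detected at a low level in all 3 wild-type mice, with -1.09, -0.21 and -1.53, and the related repressor gene Bach1 had 0.31, 1.48 and 1.07.

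Spread between mice was described over all kept genes. Over the 10357 genes the median SD was 0.54 on the log2 scale, or 1.45-fold, and 80% of genes lay between 0.23 and 1.12. Probes printed at 10 places on each array gave the spot-to-spot error within an array, which leaves out amplification, labelling and hybridisation: over the 211 kept ones the median SD was 0.062, 0.058 and 0.068 in mouse 1, 2 and 3, against 0.53 between mice. Differences between mice and between the separate labelling and hybridisation of their RNA cannot be told apart. The share of genes more than 2-fold apart was 35.1% between mouse 1 and mouse 2, 25.7% between mouse 1 and mouse 3, and 23.6% between mouse 2 and mouse 3. After quantile normalization the same order held at 29.4%, 27.4% and 18.1%. The median absolute difference gave another order under the main scaling, with 0.76 between mouse 1 and mouse 2, 0.58 between mouse 1 and mouse 3 and 0.58 between mouse 2 and mouse 3. These figures describe 3 animals and carry no test.

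**Figure D3:**
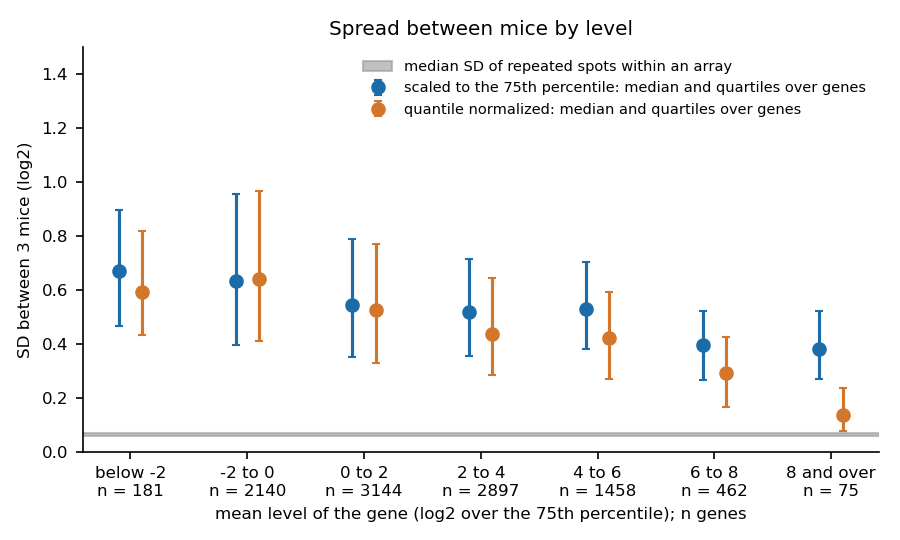
SD between the 3 mice (log2) by mean level of the gene, as the median with quartiles over the genes of each band, after scaling to the 75th percentile and after quantile normalization. The grey band marks the median SD of repeated spots within an array, 0.058 to 0.068. Medians fell from 0.67 below level -2 to 0.38 at level 8 and over, and to 0.13 there after quantile normalization.

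An SD over 1 was found for 1374 genes (13.3%). The same number passed after quantile normalization, 1257 of them shared. Without mouse 3 the number was 2194. Mouse 1 was the farthest of the 3 for 756 of the 1374 and lay above the others in 606. Mouse 2 was the farthest for 357 and mouse 3 for 261. The largest SD belonged to Slc2a4, the insulin-regulated glucose carrier, with levels of 3.15, -4.10 and -0.88. The mitotic motor Kif4 came next with 2.63, -4.06 and -1.87. Rims1, a synaptic scaffold gene, was highest in mouse 2, with 3.81, 7.27 and 0.80. Among the next 7, Obox1, Sh3tc2, Syngr1 and Dapk2 were highest in mouse 1 and Rbfox2, Nxnl1 and Adra2b in mouse 3. At the other end, 784 genes had an SD under 0.2. The smallest belonged to the kinase gene Rps6ka1, at an SD of 0.0039 that became 0.21 after quantile normalization, and the DNA repair gene Rad50 (2.21, 2.21 and 2.19) came next. Kansl2, Cnot10, Tpgs2, Cttn, Pitpnm1, Usf2, H2ac19 and Trim28 followed.

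Red cell precursor genes set mouse 1 apart. All 12 erythroid genes on the array were kept, and 10 of them were more than 2-fold higher in mouse 1 than in both other mice, against 8.32% of all kept genes. After quantile normalization it was 9 of the 12, against 8.75%. Klf1, the erythroid master regulator, had levels of 5.84, 1.51 and 1.94, which is 17.3-fold above the mean of the other two. Gata1, which drives erythroid and megakaryocyte genes, had levels of 5.02, 1.29 and 1.18. Its partner Tal1 had 5.22, 1.68 and 1.15. Mouse 2 and mouse 3 lay within 0.53 of each other for these 3 factors, and mouse 1 lay far above. Red cell membrane genes were also highest in mouse 1: Epb42, protein 4.2, had 4.41, -0.39 and 0.43, and Slc4a1, the anion exchanger band 3, had 7.79, 5.26 and 5.39. Alas2, the first enzyme of heme synthesis in red cell precursors, had 7.66, 4.64 and 6.47, with mouse 3 between the males. The carbonic anhydrase genes Car1 and Car2 were 9.65-fold and 3.94-fold higher in mouse 1. Epor, the erythropoietin receptor, differed least, with 5.11, 3.96 and 4.03. The exceptions were the globins Hbb-bt and Hba-a1, which read at the top of the range in all 3 mice. Macrophage lists lay the other way in the same mouse, as did some other lists. Mouse 1 was the lowest for 25 of 29 identity genes, 29 of 37 lysosomal genes, 15 of 15 antigen presentation genes and 6 of 6 Fc receptor genes, against 5011 of all 10357 kept genes. Its median difference from the mean of the other mice was -0.80 for the identity list (-0.72 after quantile normalization), against -0.31 (-0.25) over all kept genes. Mouse 1 was also the lowest for 24 of 28 translation and cytoskeleton genes, 7 of 9 B cell genes and 14 of 15 pattern recognition genes. It was the lowest for only 2 of 12 T cell genes, 1 of 9 natural killer cell genes and 0 of 8 neutrophil genes. The low position was thus not particular to the macrophage lists. The part of the erythroid genes in these values was not tested. In these bulk samples, fewer cells of a type and less RNA per cell cannot be told apart.

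Genes of dividing cells did the same. Of 20 cell cycle genes 19 were kept, mouse 1 was the highest for all 19, against 23.0% of all kept genes. More than 2-fold above both other mice were 17 of the 19, against 8.32% of all kept genes (18 after quantile normalization, against 8.75%). Mki67, a proliferation marker, was 8.76-fold higher in mouse 1 (level 6.95) than the mean of the other mice, and its second probe had 6.79, 3.79 and 3.52. Ccna2, a cyclin of replication and mitosis, had 5.46, 1.64 and 1.98, and the mitotic kinase Plk1 had 4.55, 1.10 and 0.74. Top2a, which untangles replicated chromosomes, had 2.74, -1.31 and -0.76. Pcna, the replication clamp, differed least in level among the bright members, with 6.80, 6.01 and 5.36. The median of the list was 8.76-fold higher in mouse 1, and that of the erythroid list 7.30-fold.

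**Figure D4:**
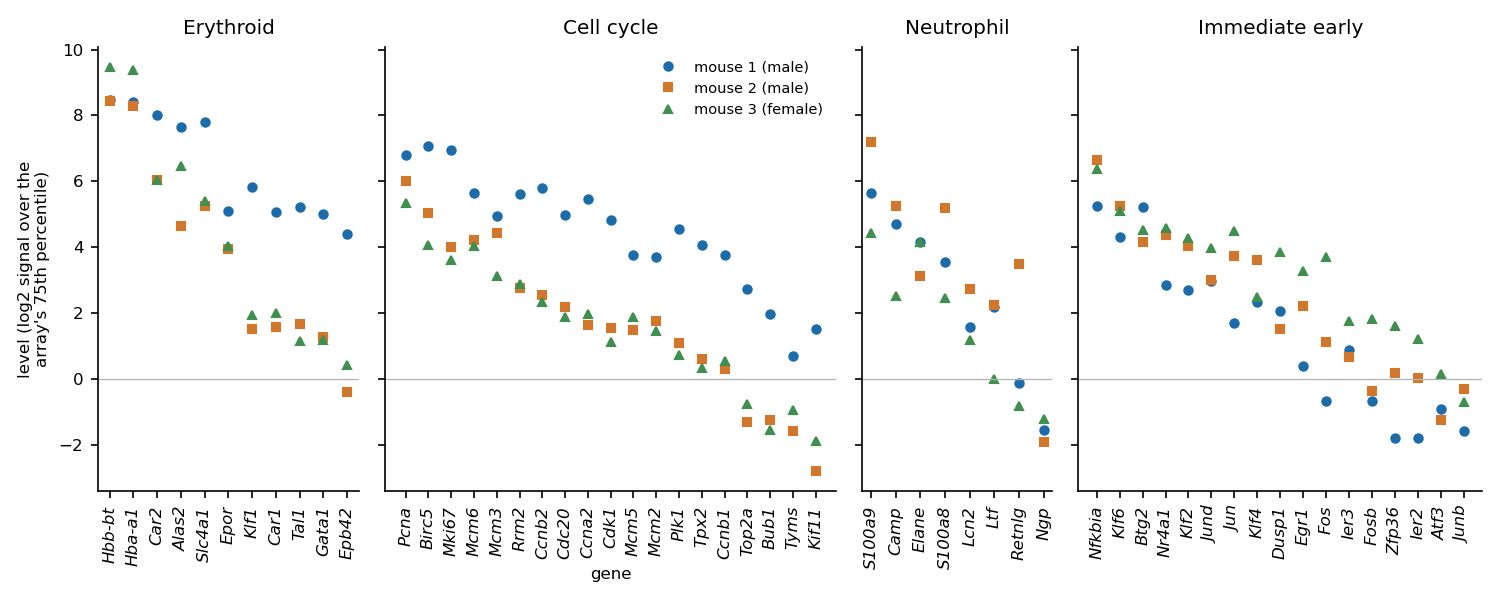
Level, in log2 units above the 75th percentile of each array, of kept erythroid, cell cycle, neutrophil and immediate early genes in each mouse, 1 erythroid gene not drawn. Mouse 1 lay above the other 2 for all erythroid genes drawn but the globins and for 19 of 19 cell cycle genes, mouse 2 was the highest for 6 of 8 neutrophil genes, and mouse 3 for 12 of 17 immediate early genes; over all kept genes mouse 1, 2 and 3 were the highest for 23.0%, 53.1% and 23.9%.

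Some heme, iron and antioxidant genes were also highest in mouse 1. It was the highest for 3 of 13 heme genes, 6 of 20 iron genes and 9 of 24 antioxidant genes, against 23.0% of all kept genes. The heme share was thus near that of all kept genes. Tfrc, the transferrin receptor that imports iron, had levels of 5.99, 2.16 and 1.84, 15.9-fold above the mean of the other two. Slc25a37, mitoferrin 1, which brings iron into mitochondria, had 7.39, 3.59 and 5.15. Abcg2, a porphyrin exporter, had 5.63, 2.50 and 2.12, and Abcb6, a porphyrin transporter, had 3.66, 1.60 and 1.27. Each was highest in mouse 1, as the erythroid genes were, and the part of the erythroid and cell cycle genes in these values was not tested. Prdx2, a peroxidase abundant in red cells, had 7.66, 6.35 and 6.50. The glutathione synthesis genes Gclm (4.14, 1.72 and 2.29) and Gclc (4.53, 2.64 and 2.74) and the small MAF factor Mafk (3.35, 1.44 and 1.30) followed. By count, 2 of 13 heme genes, 3 of 20 iron genes and 5 of 24 antioxidant genes were more than 2-fold above both other mice in mouse 1, against 8.32% of all kept genes. In mouse 3 it was also 2 of the 13 heme genes, against 3.49% (1 after quantile normalization, against 4.16%). Hmox1, Slc40a1 and Spic were not highest in mouse 1.

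Promoters of the erythroid genes were read for the letters that GATA factors and KLF1 bind, since 10 of the 12 stood together in mouse 1. Of the 12 genes, 8 had a window, among them Hbb-bt and Hba-a1, which did not share that pattern. AGATAA, or TTATCT on the other strand, stood in 4 of the 8 (50%), in 6.78% of the windows of kept genes and in 11.4% of all. GAGGAA also stood in 4 of the 8, against 27.0% of the windows of kept genes and 28.3% of all. CACACCC stood in 2 of the 8, in 8.20% of the windows of kept genes and in 7.85% of all. The 100 named genes with the highest excess in mouse 1 had 77 windows, of which 12 held AGATAA (15.6%) and 11 held CACACCC (14.3%). For the 100 highest in mouse 3 it was 3 (3.75%) and 9 (11.2%) of 80 windows. The matches began 86 bases before the start in Alas2, 226 in Epb42, 205 in Tal1 and 116 in Klf1, and no match overlapped that of another searched motif in the printed windows. GATA matches are in capitals in the first 3 windows and the KLF match in the last.
Alas2 (chrX:150547167-150547466, + strand): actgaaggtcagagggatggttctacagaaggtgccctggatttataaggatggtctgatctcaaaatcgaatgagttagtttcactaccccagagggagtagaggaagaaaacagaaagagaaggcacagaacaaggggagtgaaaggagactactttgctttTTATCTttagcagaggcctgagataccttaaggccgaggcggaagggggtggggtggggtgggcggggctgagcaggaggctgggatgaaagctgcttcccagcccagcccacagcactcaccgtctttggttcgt
Epb42 (chr2:121036828-121037127, - strand): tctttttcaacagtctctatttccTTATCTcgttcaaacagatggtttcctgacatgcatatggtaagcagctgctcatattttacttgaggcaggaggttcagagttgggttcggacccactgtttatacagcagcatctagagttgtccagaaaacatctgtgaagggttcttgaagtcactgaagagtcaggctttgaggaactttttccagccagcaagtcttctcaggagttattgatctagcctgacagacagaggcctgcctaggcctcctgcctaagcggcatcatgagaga
Tal1 (chr4:115056176-115056475, + strand): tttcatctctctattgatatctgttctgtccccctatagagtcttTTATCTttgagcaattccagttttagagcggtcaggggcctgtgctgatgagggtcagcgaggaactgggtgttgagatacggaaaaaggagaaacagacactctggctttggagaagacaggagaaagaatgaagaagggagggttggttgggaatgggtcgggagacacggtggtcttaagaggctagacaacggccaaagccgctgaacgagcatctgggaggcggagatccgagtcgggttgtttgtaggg
Klf1 (chr8:84901732-84902031, + strand): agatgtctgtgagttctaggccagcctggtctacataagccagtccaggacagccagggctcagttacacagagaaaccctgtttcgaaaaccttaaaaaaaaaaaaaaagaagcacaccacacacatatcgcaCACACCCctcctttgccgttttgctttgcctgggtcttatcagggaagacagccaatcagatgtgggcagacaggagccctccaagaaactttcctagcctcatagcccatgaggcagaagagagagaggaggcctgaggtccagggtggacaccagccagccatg

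Myeloid genes were often highest in mouse 2, which was the highest for 53.1% of all kept genes. Of the 12 neutrophil genes 8 were kept, and 4 of the 8 were more than 2-fold above both other mice, against 7.24% of all kept genes (3 of 8 after quantile normalization, against 3.97%). S100a9, a calcium-binding alarmin, had levels of 5.63, 7.19 and 4.42, and its partner S100a8 had 3.56, 5.20 and 2.47. Retnlg, a resistin-like neutrophil gene, had -0.12, 3.50 and -0.82. All 4 remaining neutrophil genes, Cxcr2, Mmp8, Mmp9 and Mpo, were detected on 1 array each, that of mouse 2. Elane, neutrophil elastase, did not follow, with 4.17, 3.14 and 4.17, nor did Ngp, with -1.55, -1.91 and -1.20. Of the 7 monocyte genes, 4 were more than 2-fold higher in mouse 2 (3 after quantile normalization), among them Chil3 (3.02, 5.05 and 3.66) and F13a1 (0.20, 2.49 and 0.18). Hp, haptoglobin, which binds free hemoglobin and is also a granule protein of neutrophils, had 2.63, 5.12 and 2.88. The array of mouse 2 detected the most probes, 28169 against 23512 and 20198, and 1454 of the 1900 genes detected on a single array were detected on it.

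Pancreatic enzyme genes were a further mark of mouse 2. Amy2a5, pancreatic amylase, had levels of -1.59, 3.69 and -0.59, and Ctrb1, chymotrypsinogen, had -2.07, 1.38 and -1.73. A list of 16 genes of the exocrine pancreas was drawn up after these values were seen. Mouse 2 had 15 of the 16 above background, mouse 1 and mouse 3 had 5 each, and 9 were detected in mouse 2 alone, among them Pnlip, Cpa1, Prss2 and Cela3b. Over all 20018 named genes 7.26% were detected in mouse 2 alone. Mouse 2 was more than 2-fold above both others for 11 of the 16, whether kept or not. The same share over all named genes, kept or not, was not computed, so nothing is read from that count. Of the 4 that were kept, mouse 2 was more than 2-fold above both others for 2, against 7.24% of all kept genes. These 2 were Amy2a5 and Ctrb1, which prompted the list. Cela1 did not follow, with 3.05, 2.63 and 3.01.

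Immediate early genes set mouse 3 apart. All 17 were kept, and 7 of them were more than 2-fold above both other mice, against 3.49% of all kept genes (9 of 17 after quantile normalization, against 4.16%). Fos, the founding member of this class, had levels of -0.66, 1.13 and 3.71, and its relative Fosb had -0.68, -0.35 and 1.82. Egr1 had 0.41, 2.20 and 3.29. Zfp36, which destabilises cytokine transcripts, had -1.77, 0.19 and 1.61, and the phosphatase gene Dusp1 had 2.05, 1.53 and 3.85. The order was graded for Fos, Egr1, Zfp36, Ier2 and Jun, with mouse 1 lowest, mouse 2 between and mouse 3 highest. Klf4, Klf6, Nfkbia and Junb were highest in mouse 2 instead, and Btg2 in mouse 1. Of the 15 promoter windows of the list, 2 held TGACGTCA, the cyclic AMP response element (3.31% of the windows of kept genes, 1.88% of all). For the serum response (CArG) element only some forms were searched, with certain positions open to any base. These forms matched 1 of the 15 windows (0.502% of the windows of kept genes, 0.711% of all). How many of the windows hold a CArG element of any form was not tested.

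Platelet genes were low in mouse 3. Pf4, platelet factor 4, had levels of 4.88, 5.76 and 2.09, Ppbp had 1.24, 2.82 and -0.34, and Gp9 had 1.91, 1.32 and -1.77. Only 3 of the 10 platelet genes on the array were kept (30.0%), against 51.7% of all named genes. Itga2b and Gp5 were well above background on no array.

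**Figure D5:**
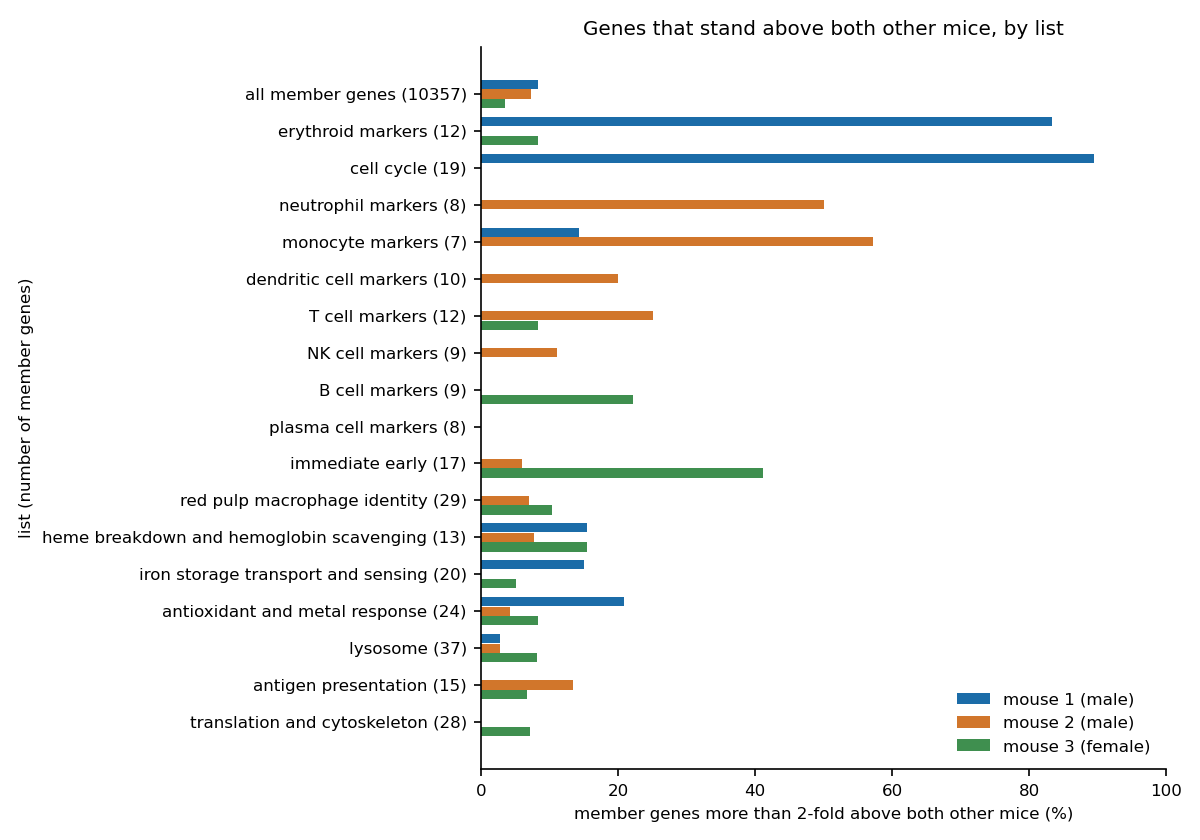
Share of the kept genes of each list (number in brackets) that were more than 2-fold above both other mice, for each mouse, beside the same share over all kept genes (8.32%, 7.24% and 3.49% in mouse 1, 2 and 3). Bars start at 0. The erythroid (83.3%) and cell cycle (89.5%) lists had the highest shares in mouse 1.

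Markers of lymphocytes and other cells were also detected. Of 13 T cell genes 12 were kept, with a median level of 0.92, and of 10 natural killer cell genes 9, with a median of 0.33, though Gzma, a granzyme, reached 5.17, 4.50 and 4.07. Of 10 B cell genes 9 were kept, with Cd79b, a chain of the antigen receptor complex, at 5.89, 6.56 and 6.90, while Cd79a was above level 0 in mouse 3 only (1.12, against -2.27 in mouse 1) and the defining B cell factor Pax5 was not kept. All 8 plasma cell genes were kept, led by Jchain, the joining chain of IgA and IgM, at 6.58, 6.80 and 6.59, with little spread. Siglech, a receptor of plasmacytoid dendritic cells, had 6.92, 7.23 and 7.35, and its second probe had 0.67, 1.21 and 1.49. Summed over each list and set against the 75th percentile on the log2 scale, signals ranged from 5.02 to 5.83 for T cells, 6.21 to 7.30 for B cells, 7.55 to 7.93 for plasma cells and 5.79 to 7.99 for neutrophils. These sums are over different probes and numbers of genes, so they compare mice within a list and not one list with another. For the 5 macrophage markers the sum was 9.30 in mouse 1, 9.67 in mouse 2 and 10.38 in mouse 3, and for the cell cycle list 9.57, 7.57 and 7.02. The erythroid sum, 9.67 to 10.65, included the globins at the top of the range. The part of these cells in the levels above was not tested. Of the 5 marginal zone macrophage genes 4 were kept (80.0%), against 51.7% of all named genes. Marco, which those macrophages use to bind bacteria, had 6.34, 5.76 and 5.87. Cd209d had 1.89, 3.30 and 2.82, Cd209a had -0.13, 2.97 and 2.45, and Siglec1 had -0.72, 0.13 and 0.84. Cd209b, the SIGNR1 lectin that defines those cells, was above background in mouse 2 only. Of 13 endothelial and stromal genes 5 were kept, and the collagen genes Col1a1 and Col3a1 with Dcn, Pdgfra, Tek and Emcn were well above background on no array.

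The labelled sexes were borne out by the Y-linked genes Eif2s3y (2.95, 3.25 and -4.54) and Ddx3y (0.06, 0.16 and -4.35), above background in both males and not in the female. Xist, Uty and Kdm5d were above background on no array, Xist therefore also in the female.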

How the data were processed

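Spots came from the scanner files deposited for the 3 wild-type arrays. Their processed signal is an intensity on a linear scale, written by Agilent Feature Extraction 10.7.3.1 per the file headers (version 9.1 per the submitters' processing notes). All 3 lay on a single slide. Control and outlier-flagged spots were left out, log2 was taken, each array's 75th percentile was subtracted, and spots of a probe were averaged. Accessions were named through RefSeq (GRCm38). A gene took its brightest kept probe. The rule for named genes, of which the text prints a part, took the 40 brightest, the 5 markers, up to 8 bright members of each list with its undetected defining genes, the 10 largest and 10 smallest SDs, the 6 genes highest and lowest in each mouse, and sex-linked genes; others were chosen after their values were seen. Members and lists were chosen with earlier results of these data known. Alternatives were percentiles over other probes, the array median, quantile normalization, normexp (limma 3.58.1, R 4.3.3), other filters and leaving out each mouse. Steps were tested on simulated data. The number of arrays limits the precision. Some listed genes count in the totals and are not reported here by name.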

Additional observations from a re-analysis of the deposited data

How the results depend on the processing

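Of the alternative values computed, 188 stayed within their limits, 13 moved beyond them and none reversed. With no filter on background, 55681 probes and 20011 genes entered in place of 18842 and 10357, and 7744 genes had an SD over 1 in place of 1374. Leaving out each mouse in turn gave 18922 to 22195 probes, 10392 to 11367 genes, 32 to 37 of the 40 brightest genes, a median SD of 0.41 to 0.55 and 1158 to 2194 genes with an SD over 1, the last without mouse 3. The median excess of the erythroid list in mouse 1 was 2.50 to 3.25 (log2) over all settings run, and that of the cell cycle list 2.76 to 3.37. The immediate early list in mouse 3 ranged from 0.86 to 1.58. Of the 5 markers, the level of Vcam1 was 5.55 and that of Hmox1 5.15 with the median over probes. Leaving out 1 mouse gave marker SDs of 0.24 to 0.68 for Spic, 0.29 to 0.86 for Vcam1, 0.14 to 1.09 for Hmox1 and 0.24 to 0.51 for C1qa. Quantile normalization lowered the SD of Slc40a1 to 0.28 and of C1qa to 0.23. Normexp on the mean signal was planned but not run: the median signal was used, and it kept 30 of the 40 brightest genes. No paired analysis was possible because a single group was described and replicate numbers follow accession order. Dim signals are limited by background.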
